A study of Homo sapiens with 2 samples.

Results

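The 10 genes described here encode the pro-apoptotic members of the BCL2 family: the effectors BAX and BAK1, and the BH3-only genes BID, BCL2L11, BBC3, BAD, BIK, BMF, HRK and PMAIP1. They were taken by gene symbol as all probe sets annotated to them, which gave 39 of the 49395 probe sets and 10 of the 18132 genes on the array. A probe set is a group of short probes that together read transcripts of a gene. The samples were H1299 cells, a human cell line from a non-small cell carcinoma of the lung. It lacks p53, a known activator of BBC3, PMAIP1 and BAX. In 1 sample the cells were transfected with EGR1, a zinc-finger transcription factor of the immediate-early class, in the plasmid pcDNA3.1, and in the other with pcDNA3.1 alone. Both transfections were transient and used Lipofectamine, and per the series description they were collected after 48 hours. The study sought genes under EGR1 that bear on the malignancy of this cancer, with apoptosis in view. Each group held 1 array, so no test was possible: there is no p-value, no error between cultures, and every difference describes these 2 arrays.

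BCL2 family proteins decide whether the outer mitochondrial membrane stays intact. BAX and BAK1 form the pores through which cytochrome c leaves, the anti-apoptotic proteins (BCL2, BCL2L1, MCL1 and relatives) hold them in check, and the BH3-only proteins either activate the effectors directly or occupy the groove of the anti-apoptotic proteins. Much of the control of BH3-only proteins lies in transcription (BBC3, PMAIP1, HRK, BCL2L11 and BMF), whereas BID is activated by cleavage and BAD by loss of phosphorylation, which an expression array does not read.

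The values are log2 levels, and a difference is the level in the EGR1 array minus that in the empty-vector array, so that 1 is a doubling. A gene is represented by its brightest probe set, the one with the highest mean level. All 10 genes lay past a floor on signal (5.22, the 40th percentile of mean level across probe sets), as did 27 of their 39 probe sets. Being past the floor does not show that a gene is expressed, and BIK (mean level 5.71) and BMF (6.09) lay nearest to it. A gene was counted as differing at 2-fold or, less strictly, at 1.5-fold. No pro-apoptotic BCL2 family gene reached 2-fold, which 0.356% of the 12652 genes past the floor did, and none reached 1.5-fold, which 1.17% did. None of the 27 probe sets past the floor reached 1.5-fold, against 1.49% of all probe sets past it, nor did any of the remaining 12. At shares this small, 0 of 10 genes is near the background and says little about these genes.

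Across the 10 genes the median difference was 0.04, against -0.02 over all genes past the floor. BAK1, BBC3, BAD, BAX, BIK, BMF and BCL2L11 were above 0, HRK and PMAIP1 were below 0, and BID was at 0. Among all genes past the floor 44.6% were above 0 and 52.8% below. The differences ran from -0.45 (HRK) to 0.43 (BAK1). The only repeat measurement is that of several probe sets for a gene, and their pooled SD over 7113 genes was 0.15 on the log2 scale. That SD covers probe-level error alone, and says nothing of how cultures or transfections vary. Both arrays read a whole culture, so fewer cells with a transcript and less of it per cell cannot be told apart, and the share of cells that took up the plasmid is not given in the sources used here.

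**Figure D1:**
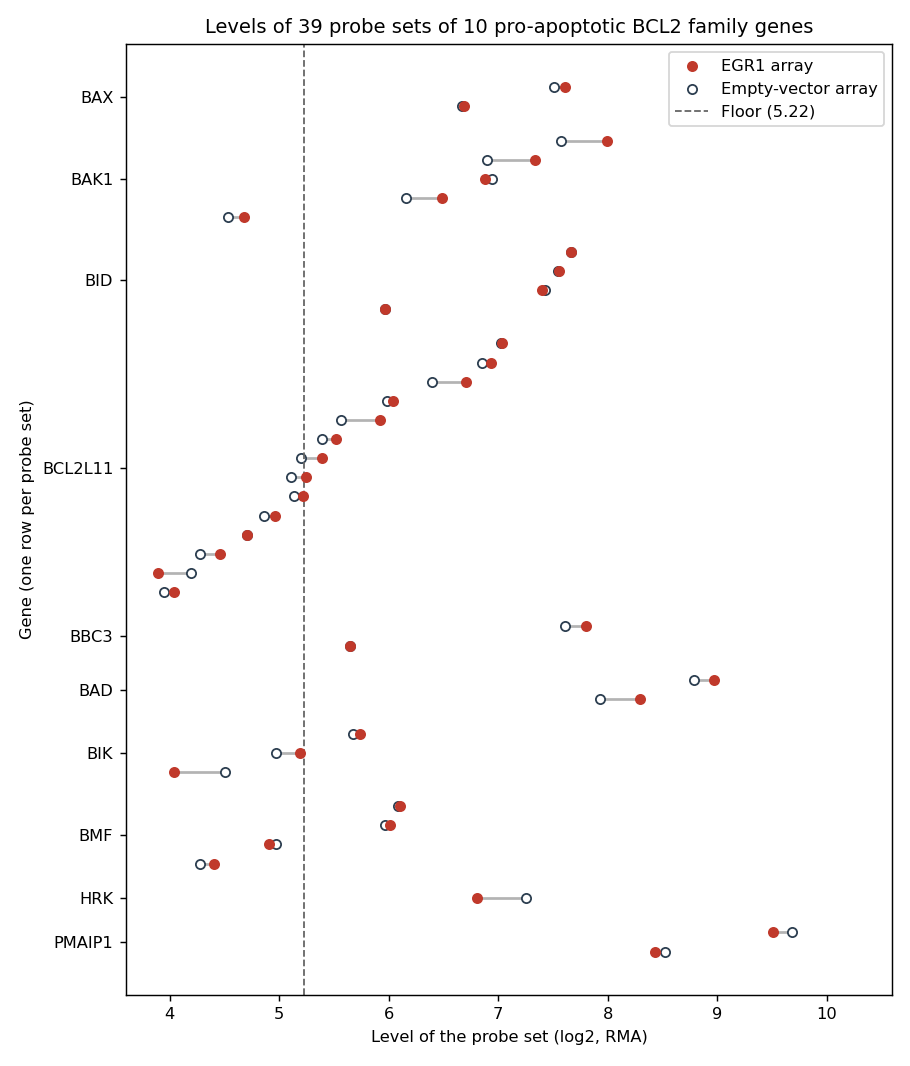
Levels of the 39 probe sets (log2, x axis), 1 row per probe set and grouped by gene, in the EGR1 array (filled circles) and the empty-vector array (open circles), with the floor at 5.22 as a dashed line. In 19 of the 39 rows the circles lie less than 0.1 apart, and the widest gaps are those of BAK1, HRK, BAD, BIK and BCL2L11 probe sets.

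The transfected gene was read by 6 probe sets that did not move together. In the EGR1 array EGR1 probe sets 11717861_a_at and 11751643_x_at read 11.43 and 9.92, against 7.70 and 7.17 in the empty-vector array, while the other 4 probe sets differed by -0.39 to -0.20. Where these probe sets lie relative to the plasmid's insert was not established here. Of markers for the cell line, the mesenchymal gene VIM read 13.66 and 13.73 (EGR1 and empty-vector arrays). Of 6 epithelial markers 4 were past the floor, KRT8, KRT18, KRT7 and KRT19, and EPCAM and CDH1 were not. KRT8 (9.97 in the EGR1 array, 7.97 in the empty-vector array) and KRT18 (12.47 and 10.70 in the same order) were past 2-fold. KRT7 was lower in the EGR1 array (5.20, against 5.75 in the empty-vector array), and KRT19 differed by 0.24. Under the floor, EPCAM differed by -0.39 and CDH1 by -0.29 by their brightest probe sets. The part of these marker differences in the values below was not tested. Of 3 leukocyte markers measured, CD3E was past the floor (5.49 in the EGR1 array, 5.18 in the empty-vector array) and PTPRC and CD14 were not. Of 3 endothelial markers 2 were past the floor, of 4 fibroblast markers 1, and of 4 lung alveolar markers 4. A level past the floor was therefore not read as detection. The quartiles of all probe sets were 4.32, 5.79 and 7.47 in the EGR1 array and 4.28, 5.77 and 7.504 in the empty-vector array.

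EGR1 binds GC-rich DNA, and the promoters of the genes were searched for its motif. RefSeq promoters (GRCh38.p14, 250 bases before to 50 after a start) were found for 9 of the 10 genes, 15 promoters in all, and BIK had no entry. The motif GCGNGGGCG, the usual form of the EGR1 site with N for any base, was searched on both strands. It was present in 2 of the 15, the only listed promoters of BCL2L11 and BAX, and in 9.43% of all 35116 promoters. A gene with several overlapping promoters, such as BID, counts more than once among the 15. By gene it was 2 of 9, against 15.2% of genes past the floor, each by its first listed promoter. In BCL2L11 the match lies before the start, and in BAX it lies on the opposite strand just after the start. BAK1 and HRK, the genes with the largest differences in either direction, have no match in this window. These 4 promoters are printed 5′ to 3′ along the gene, with the motif in capitals.
BAK1, chr6:33580227-33580526, minus strand: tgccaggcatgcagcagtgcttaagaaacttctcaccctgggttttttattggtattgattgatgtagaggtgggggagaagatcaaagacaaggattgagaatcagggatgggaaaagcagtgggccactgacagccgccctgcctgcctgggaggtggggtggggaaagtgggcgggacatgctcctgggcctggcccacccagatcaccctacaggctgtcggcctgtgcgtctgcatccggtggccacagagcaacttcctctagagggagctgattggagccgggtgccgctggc
HRK, chr12:116881392-116881691, minus strand: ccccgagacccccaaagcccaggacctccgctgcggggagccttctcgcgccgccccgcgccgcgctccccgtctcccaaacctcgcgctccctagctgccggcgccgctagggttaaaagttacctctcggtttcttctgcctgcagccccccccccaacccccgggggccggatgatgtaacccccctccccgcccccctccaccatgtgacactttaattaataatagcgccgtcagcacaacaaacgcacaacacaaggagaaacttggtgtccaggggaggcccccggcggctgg
BAX, chr19:48954625-48954924, plus strand: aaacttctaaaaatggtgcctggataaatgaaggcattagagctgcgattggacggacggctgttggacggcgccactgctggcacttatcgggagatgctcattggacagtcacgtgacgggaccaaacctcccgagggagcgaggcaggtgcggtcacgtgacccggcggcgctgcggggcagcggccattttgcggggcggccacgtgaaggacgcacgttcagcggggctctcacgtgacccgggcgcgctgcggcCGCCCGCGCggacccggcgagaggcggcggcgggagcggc
BCL2L11, chr2:111120664-111120963, plus strand: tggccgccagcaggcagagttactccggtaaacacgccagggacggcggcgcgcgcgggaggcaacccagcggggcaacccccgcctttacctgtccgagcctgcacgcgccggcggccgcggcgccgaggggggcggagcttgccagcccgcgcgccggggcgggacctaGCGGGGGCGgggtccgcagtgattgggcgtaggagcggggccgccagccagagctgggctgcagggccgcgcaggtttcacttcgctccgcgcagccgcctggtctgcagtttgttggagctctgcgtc
A match is a description of letters and not a binding site, and the absence of one covers only this window. GC content of the 15 promoters ran from 48.0% to 78.0%, with a median of 58.7% over all promoters. Over genes past the floor, each by its first listed promoter, the median difference was 0.01 in the 1570 with a match and -0.03 in those without.

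The effectors were both above 0, by different amounts. BAK1, which resides in the outer mitochondrial membrane, read 7.997 in the EGR1 array and 7.57 in the empty-vector array by its brightest probe set 11752413_a_at, a 1.34-fold higher level (difference 0.43). A difference at least as large in either direction was found in 3.26% of genes past the floor. Of the other 4 BAK1 probe sets, 11732515_x_at read 7.34 in the EGR1 array against 6.90 in the empty-vector array. For 11746208_a_at of BAK1 the values were 6.48 in the EGR1 array and 6.16 in the empty-vector array. These 3 BAK1 probe sets were thus higher in the EGR1 array by 0.33 to 0.44, more than the pooled SD between probe sets. BAK1 probe set 11748849_a_at went the other way (6.88 in the EGR1 array, 6.95 in the empty-vector array), and 11762913_a_at, under the floor, read 4.68 and 4.53 in the same order. The SD between the 5 BAK1 probe sets was 0.21, and the difference of BAK1 averaged 0.25 over them. BAK1 also has processed pseudogenes, whose transcripts these probes may bind.

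BAX, the effector that moves from cytosol to mitochondria when activated, differed less. Its brightest probe set 11742537_a_at read 7.610 in the EGR1 array and 7.505 in the empty-vector array, and 11759444_x_at read 6.68 in the EGR1 array and 6.67 in the empty-vector array. The BAX difference of 0.10 was smaller than the pooled SD between probe sets, and 52.3% of genes past the floor differed by as much or more.

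Of the direct activators, BID was level on all its probe sets. BID links death receptors to mitochondria once caspase-8 has cleaved it. Probe sets 11724046_a_at (7.67) and 11745421_a_at (5.97) of BID gave the same value to the last digit in both arrays. The other 2 BID probe sets differed by 0.01 and -0.03, so the 4 lay within 0.03 of 0 with an SD of 0.02. Identical values on both arrays occurred in 4 of the 39 probe sets of the family (2 of BID, 1 of BBC3 and 1 of BCL2L11), or 10.3%, and in 5.28% of all probe sets other than controls. How the authors' summarisation gave them was not tested, so an identical pair is not read as more precise than any other.

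BCL2L11 encodes BIM, which is held on the dynein motor complex and is spliced into several isoforms. It had 14 probe sets, the most of the family. By its brightest probe set 11718080_a_at it read 7.03 in the EGR1 array and 7.02 in the empty-vector array, a difference of 0.01 that 93.4% of genes equalled or exceeded. The other BCL2L11 probe sets mostly lay higher in the EGR1 array: 12 of 14 were above 0, 1 was at 0 and 1 was below, with a median of 0.09, and all 7 past the floor were above 0. Of all probe sets past the floor 42.5% were above 0. The largest BCL2L11 differences were those of 11753863_s_at (5.92 in the EGR1 array, 5.56 in the empty-vector array) and 11718078_a_at (6.71 in the EGR1 array, 6.39 in the empty-vector array). The 1 below 0, 11745162_s_at, was under the floor (3.89 in the EGR1 array, 4.20 in the empty-vector array). These probe sets read the same 2 RNA samples and may read the same transcripts, so a shared sign among them is not replication.

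BBC3 encodes PUMA, which binds all the main anti-apoptotic relatives; its place among the direct activators is debated. Its brightest probe set 11727707_a_at read 7.80 in the EGR1 array and 7.61 in the empty-vector array, a 1.15-fold higher level (difference 0.20). BBC3 probe set 11727706_a_at read 5.65 in both arrays. The SD between these BBC3 probe sets was 0.14 and their mean difference 0.10, and 24.7% of genes past the floor differed by at least as much as the brightest probe set did.

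**Figure D2:**
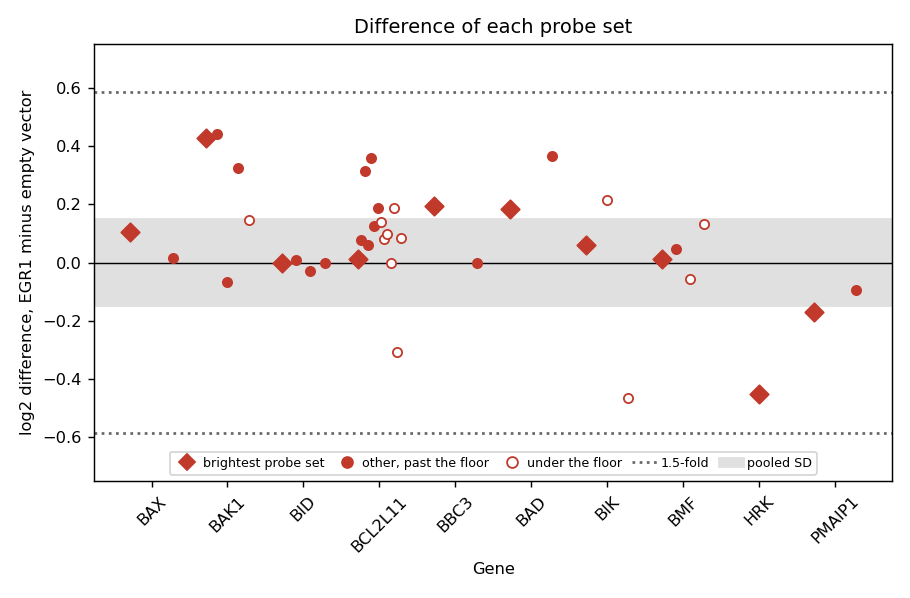
Difference of each of the 39 probe sets (log2, EGR1 minus empty vector, y axis) by gene, with the brightest probe set of a gene as a diamond, those under the floor as open circles, the pooled SD of 0.15 between probe sets as a grey band and 1.5-fold as dotted lines. Past the floor, 3 BAK1, 3 BCL2L11, both BAD and 1 BBC3 probe sets lie above the band, and HRK and 1 PMAIP1 probe set lie below it.

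Among the sensitizers, by brightest probe set, BAD was higher and HRK and PMAIP1 were lower in the EGR1 array. Each differed by more than the pooled SD between probe sets, PMAIP1 only just. HRK, known for its induction in neurons deprived of growth factor, had a single probe set, 11737263_at, which read 6.81 in the EGR1 array and 7.25 in the empty-vector array. HRK was thus 1.37-fold lower in the EGR1 array, the largest difference of the family, and 2.57% of genes past the floor differed by as much or more. Of the 6503 probe sets within 0.5 log2 units of its level 3.95% did. With a single probe set, HRK lacks the repeat that the other genes have.

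BAD, which is kept inactive by survival kinases through binding to 14-3-3 proteins, was higher in the EGR1 array on both probe sets. By 11750088_x_at BAD read 8.97 in the EGR1 array and 8.78 in the empty-vector array, a difference of 0.18. Of genes past the floor 27.8% differed by as much or more, and of probe sets at a like level 24.2% did. By 11727106_a_at BAD read 8.30 in the EGR1 array and 7.93 in the empty-vector array, a difference of 0.37 that 5.16% of the probe sets at a like level equalled or exceeded. The brightest BAD probe set is of the _x_at type, whose probes may also bind related sequences, and without such probe sets the difference of BAD was 0.37.

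PMAIP1, which encodes NOXA and chiefly restrains MCL1, was lower in the EGR1 array on both probe sets. PMAIP1 read 9.51 in the EGR1 array and 9.68 in the empty-vector array by 11724509_a_at, and 8.43 in the EGR1 array and 8.53 in the empty-vector array by 11724510_at. The differences of -0.17 and -0.09 lay just above and under the pooled SD in size, and the difference of PMAIP1 was -0.13 with the mean of its probe sets and -0.12 after the lowess correction. In all, 30.4% of genes past the floor differed by as much as the brightest PMAIP1 probe set.

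BIK, a BH3-only protein of the endoplasmic reticulum, and BMF, which is tethered to myosin motors, showed no difference that their probe sets shared. BIK read 5.74 in the EGR1 array and 5.68 in the empty-vector array by 11722954_x_at, the 1 of its 3 probe sets past the floor. Under the floor, the BIK probe set 11754121_a_at differed by 0.22 and 11722953_a_at by -0.46, with an SD between the 3 of 0.36, so the direction of BIK is not settled. BMF read 6.10 in the EGR1 array and 6.09 in the empty-vector array by 11737438_a_at, and its 4 probe sets ranged from -0.06 to 0.13.

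**Figure D3:**
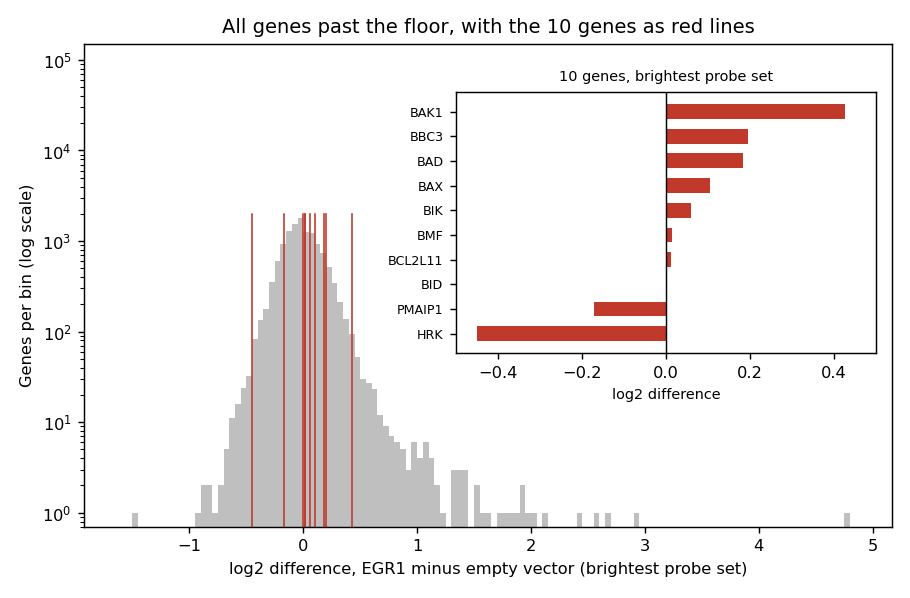
Number of genes past the floor by difference (log2, EGR1 minus empty vector, brightest probe set; log count axis), with the 10 pro-apoptotic BCL2 family genes as red lines and as bars in the inset. All 10 lie between -0.45 and 0.43, with HRK and BAK1 toward the tails and the other 8 between -0.17 and 0.20, while other genes reach 4.77.

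The anti-apoptotic relatives were read for the other side of the balance. All 6 were measured and 4 were past the floor, with a median difference of -0.01, 2 above 0 and 2 below. BCL2 read 6.22 in the EGR1 array and 6.10 in the empty-vector array, and its 6 probe sets ranged from -0.17 to 0.12. MCL1, a short-lived protein that binds BAK1 and PMAIP1, read 11.42 in the EGR1 array and 11.51 in the empty-vector array, with probe sets from -0.49 to 0.22. BCL2L1, which encodes BCL-XL, differed by -0.09 and BCL2L2 by 0.07. BCL2A1 (difference -0.42) and BCL2L10 (0.08) were under the floor in both arrays. The BAX difference less that of BCL2, an often used index, was -0.02, and it was 0.19 against BCL2L1 and 0.195 against MCL1. The corresponding value for BAK1 was 0.30 against BCL2, 0.51 against BCL2L1 and 0.52 against MCL1, and that for PMAIP1 was -0.29 against BCL2 and -0.08 against both BCL2L1 and MCL1. These indices carry the probe-level error of both genes, and for MCL1 the SD between probe sets was 0.26.

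Other genes of the pathway came from lists chosen with earlier results of these data known, and up to 4 past the floor with the largest differences are named in each. Of transcription factors reported to activate genes of the family, 11 of 13 listed were measured, with a median of 0.15. Above 0 were 9 and below 0 were 2, and 44.6% of all genes past the floor were above 0. Past 2-fold was 1, against 0.356% of all genes past the floor. This was DDIT3 (CHOP), a stress factor reported to activate BBC3 and BCL2L11, at 10.22 in the EGR1 array and 9.15 in the empty-vector array. FOXO1, a forkhead factor restrained by AKT and reported to activate BCL2L11 and BBC3, differed by 0.45, TP73, the p53 relative, by 0.25 and FOXO4 by 0.22. The TP73 probe sets ranged from -0.27 to 0.41 and those of FOXO1 from 0.04 to 0.45. BBC3 and BCL2L11 themselves had differences of 0.20 and 0.01 by their brightest probe sets. By the mean of their probe sets both differed by 0.10.

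Of protein partners and modifiers 23 of 24 were measured, 9 above 0 and 14 below, with a median of -0.06. At or beyond 1.5-fold was 1, against 1.17% of all genes past the floor. This was PIM1, a kinase that phosphorylates BAD, at 10.14 in the EGR1 array and 9.32 in the empty-vector array, with its 4 probe sets from 0.77 to 0.83. CASP8, the protease that cleaves BID, read 5.55 in the EGR1 array and 6.11 in the empty-vector array, but its 8 probe sets ranged from -0.56 to 0.27. DYNLL2, the light chain that binds BMF, differed by 0.26, and MAPK3, the ERK1 kinase that marks BIM for degradation, by 0.26.

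Of 10 genes that act after the pore 8 were measured, 2 above 0 and 6 below, with a median of -0.11. CASP9, the initiator caspase of the apoptosome, differed by 0.49 by its brightest probe set and by 0.19 by the other. ENDOG, a mitochondrial nuclease, differed by -0.31, XIAP, which inhibits caspases, by -0.24 and APAF1, the apoptosome scaffold, by 0.20. The 4 APAF1 probe sets ranged from -0.14 to 0.24 and only the brightest was past the floor, so the direction of APAF1 is not settled. None of these 8 genes reached 1.5-fold, which 1.17% of all genes past the floor did. Of 8 other BCL2-related genes 6 were past the floor, 3 above 0 and 3 below, with a median of 0.01. In that list BCL2L15 (0.14), BECN1 of the autophagy machinery (-0.12), the effector-like BOK (0.12) and the mitophagy receptor BNIP3 (-0.06) differed most. The 5 BCL2L15 probe sets ranged from -0.56 to 0.14 and the 2 of BNIP3 from -0.06 to 0.22, so the direction of these genes is not settled.

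**Figure D4:**
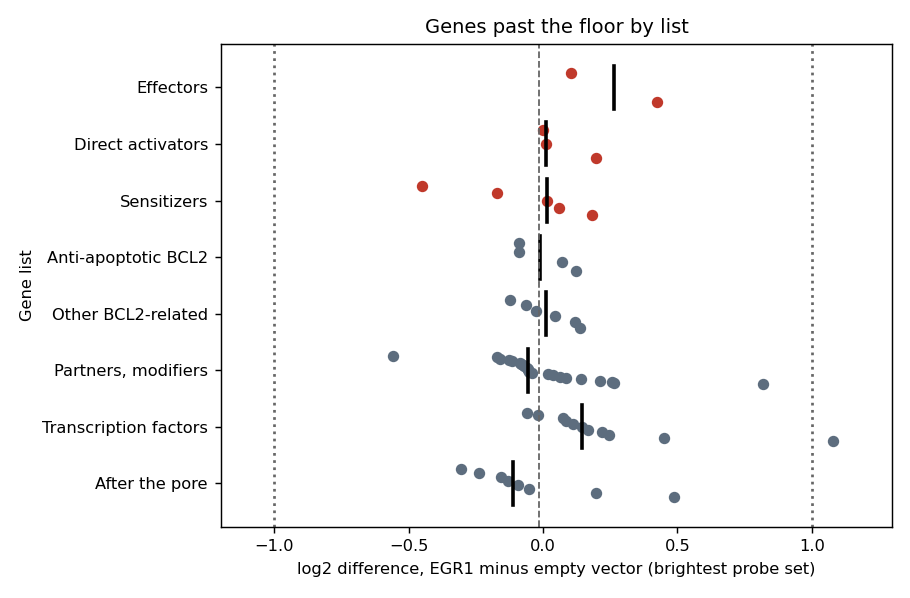
Difference of each gene past the floor (log2, EGR1 minus empty vector, brightest probe set, x axis) in 8 lists, with the 3 classes of pro-apoptotic BCL2 family genes in red, list medians as black bars, the median of all genes past the floor as a dashed line and 2-fold as dotted lines. DDIT3 among the transcription factors is past 2-fold, and every red point lies between -0.45 and 0.43.

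Each gene was also read under 5 alternatives, 3 ways of choosing or combining its probe sets and 2 corrections between the arrays. HRK, PMAIP1, BBC3, BAD, BAX, BMF, BCL2L11 and BAK1 kept their sign under all 5, and BIK turned to -0.06 with the mean of its probe sets. BID ranged from -0.004 to 0.04 over the 5, and BMF from 0.002 to 0.04, too near 0 to give a direction. BAK1 ranged from 0.25 to 0.47, BAD from 0.21 to 0.37, and HRK from -0.45 to -0.43. HRK has 1 probe set, so only the 2 corrections between the arrays could change its value, and its narrow range does not show stability.

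**Figure D5:**
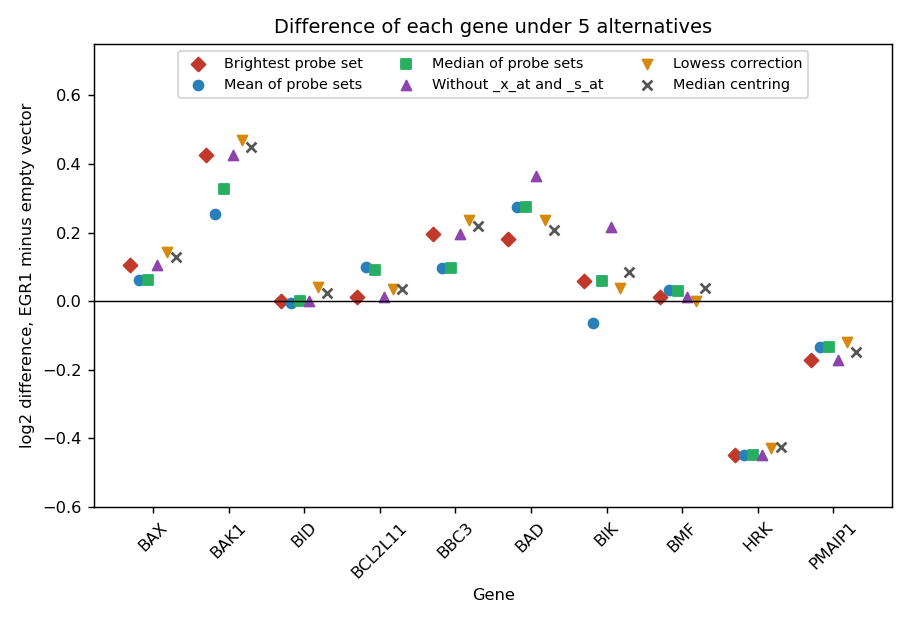
Difference of each gene (log2, EGR1 minus empty vector, y axis) by its brightest probe set and under 5 alternatives: the mean or median of its probe sets, leaving out _x_at and _s_at probe sets, a lowess correction for level, and centring on the median of all probe sets past the floor. BAK1 stays between 0.25 and 0.47 and HRK between -0.45 and -0.43, while BIK crosses 0. HRK has 1 probe set, so only the lowess correction and the centring can move it.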

How the data were processed

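The labels and the series description give 1 array per group. The authors deposited log2 levels per probe set, and the submitters' processing notes name RMA as the tool. RMA corrects background, normalizes between arrays and summarises probes, which can compress small changes. The software and settings of that step were not given in the sources used here. RMA gives no detection call, and no probe set's level was set against another's as an amount of RNA. Names came from the platform annotation, updated to RefSeq symbols by Entrez ID (44961 of 44988 probe sets with 1 symbol matched; 1832 had several symbols and 2473 none). The 102 control probe sets stood for no gene. Differences were computed with Python 3.11.15, pandas 2.3.3 and statsmodels 0.14.6 (lowess, span 0.3), and the code was tested on simulated data. Precision is limited by the 1 array per group, and no test was made. All 10 genes, EGR1 and all anti-apoptotic genes are named, and up to 4 genes past the floor per other list. Members and lists were chosen with earlier results of these data known. Listed genes that were not measured are not analysed here. With 2 arrays no genes of like pattern were sought.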

Additional observations from a re-analysis of the deposited data

How the results depend on the processing

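Counts of pro-apoptotic BCL2 family genes at 2-fold and at 1.5-fold stayed at 0 under all 7 alternatives (mean, median, no _x_at or _s_at probe sets, lowess, centring, no floor, and a floor at the 60th percentile). All 10 genes were past the floor in the main setting, so neither change of floor could raise a count. Nor could centring, which shifted every difference by 0.02. The median difference of the family genes, 0.04 in the main setting, ranged from 0.01 without _x_at and _s_at probe sets to 0.06 under centring, over 8 to 10 genes past the floor. The anti-apoptotic median has no settled direction, at -0.01 in the main setting, 0.03 after lowess and -0.09 with the median of probe sets, where 2 genes were past the floor. Of 50 values of single genes, 47 moved by less than the pooled SD of 0.15 between probe sets, and BAK1 (0.25, mean of probe sets), BAD (0.37) and BIK (0.22, both without _x_at and _s_at) moved by more. The cause was not tested. Many of the 50 could not move that far. Centring shifts every gene by the same small amount, and leaving out _x_at and _s_at probe sets changes only BAD and BIK. The 47 are therefore not a measure of stability. No paired analysis was possible because each group had 1 array. No array could be left out for the same reason, and no depth is defined for an array.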
